A study of Mus musculus with 2 samples.

Results

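The genes described here are 49 members of the TGF-beta and BMP signalling system: ligands, the proteins that hold ligands latent or process them, receptors, Smads, antagonists and target genes. They were chosen by symbol from the 32285 gene rows of the deposited matrices, with the condition that each had at least 10 UMIs (unique molecular identifiers, each standing for 1 captured transcript) over both matrices. All 49 met it, from Gdf6 with 23 UMIs upward. The rule itself used symbols and UMI totals and not the difference between the groups, but the members were chosen with earlier results of these data known. The study measured dissociated synovium, the soft tissue lining the joint, from wild-type mouse knees by droplet-based single-cell RNA-seq with 3′ UMI counting. The control group was 1 library from 20 pooled control knees. The MMS group was 1 library from 20 pooled knees of mice labelled MMS D14, an abbreviation that the labels do not spell out, and both groups were wild type with no age given in the labels.

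TGF-beta is secreted in a latent complex with its own propeptide and a latent TGF-beta binding protein, and must be released from it before it can bind the type II and type I receptor kinases, which phosphorylate Smad2 and Smad3. BMPs and some GDFs act through other type I receptors on Smad1 and Smad5, with the Id genes among the best known transcriptional targets. Activins share the Smad2 and Smad3 arm with TGF-beta. Extracellular antagonists such as follistatin and noggin bind ligands directly, and in synovium the system is known for its part in joint formation, matrix production and fibrosis.

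In fibroblast-like cells Tgfb1, Inhba and Inhbb were higher in the MMS library and Tgfb2 in the control library, as described below. The 250 bases before the transcript start of these genes are shown to place their regulatory regions. The sequences are from RefSeq on build GRCm38.p6, which shares its coordinates with mm10, and are written 5′ to 3′ on the gene's own strand. Capitals mark a match to CAGAC, the short element that Smad3 and Smad4 bind, searched on both strands. GGCGCC, a GC-rich Smad1 and Smad5 element, and TGANTCA, the AP-1 element, were searched in the same way and had no match in these 4 windows, so no matches of different motifs overlapped.
Tgfb1: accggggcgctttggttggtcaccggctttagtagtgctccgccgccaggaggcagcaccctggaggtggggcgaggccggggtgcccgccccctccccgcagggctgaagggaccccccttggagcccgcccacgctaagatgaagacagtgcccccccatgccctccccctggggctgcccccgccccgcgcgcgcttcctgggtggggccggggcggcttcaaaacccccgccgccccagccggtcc
Inhba: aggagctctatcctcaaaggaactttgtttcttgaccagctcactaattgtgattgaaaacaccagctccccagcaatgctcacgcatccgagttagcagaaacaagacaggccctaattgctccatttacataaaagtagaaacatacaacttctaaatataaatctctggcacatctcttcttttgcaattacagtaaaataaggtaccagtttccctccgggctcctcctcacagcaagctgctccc
Inhbb: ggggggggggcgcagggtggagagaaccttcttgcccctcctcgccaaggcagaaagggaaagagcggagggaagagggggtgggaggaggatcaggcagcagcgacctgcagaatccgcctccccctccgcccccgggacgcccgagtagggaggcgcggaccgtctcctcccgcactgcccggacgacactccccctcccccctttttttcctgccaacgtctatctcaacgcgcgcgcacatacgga
Tgfb2: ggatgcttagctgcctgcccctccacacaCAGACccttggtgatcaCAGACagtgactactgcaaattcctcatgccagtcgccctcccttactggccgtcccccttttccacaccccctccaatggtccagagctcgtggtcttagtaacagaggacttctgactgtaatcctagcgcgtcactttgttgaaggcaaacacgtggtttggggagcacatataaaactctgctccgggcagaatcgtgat
The Tgfb1 window is chr7:25686752-25687001 (plus strand), the Inhba window chr13:16011601-16011850 (plus strand), the Inhbb window chr1:119422249-119422498 (minus strand) and the Tgfb2 window chr1:186705990-186706239 (minus strand). Each ends at the base before its gene in the GENCODE M21 annotation. None touches an exon of a protein-coding transcript, and the Tgfb2 window touches an exon of the noncoding gene Gm29491 on the opposite strand. The Tgfb2 window held 2 CAGAC matches and the other 3 held none. The 33 members with a RefSeq window had 42 windows, of which 22 (52.4%) held CAGAC, 9 (21.4%) GGCGCC and 0 TGANTCA, while 42.2%, 9.59% and 6.75% of all 32851 windows did. Windows of 1 gene can overlap and are not independent. A match describes letters only, and no match says only that these letters are not in this window.

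The control library held 84900876 UMIs in 8810 barcodes and the MMS library 85597195 UMIs in 5286 barcodes. Filters on UMIs, genes and mitochondrial share left 7075 and 3871 cells, and removal of called doublets left 6891 and 3765, with medians of 10990 and 17444 UMIs per cell. The libraries shared 6 barcodes. The cell type named in the labels is goblet cells, but 0 cells of either library carried UMIs of 2 or more of 8 goblet markers, which allows a share of up to 0.0435% in control and 0.0797% in MMS. Clusters were named by markers. The fibroblast-like class held 3213 control and 1462 MMS cells, the macrophage or monocyte-like class 1047 and 527, the endothelial-like class 1604 and 652, and the mural-like class (pericytes and smooth muscle) 146 and 181. A cluster of 288 cells, all MMS, was kept apart because it carried tendon and cartilage markers (Col11a1, Fmod, Acan, Thbs4) beside fibroblast markers. With 1 library per group there was no test between groups. Levels are given as CPM, the UMIs of a gene per 1000000 UMIs of the class in that library, and differences as log2 ratios of MMS over control with 95% intervals that cover counting error only. Cells are not replicates, so the spread between mice is unknown. In such class totals a change in the makeup of a class and a change within its cells look alike, which is why values within clusters follow.

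Makeup did differ. In control, fibroblast-like cells were mainly those of clusters 8 (led by Ccl19 and C4b, 741 cells), 7 (Dkk2 and Myoc, 735), 14 (Pi16 and C7, 551) and 2 (Ccl11 and Sult1e1, 400), while in MMS they were mainly those of clusters 12 (Mmp13 and Mmp11, 532), 18 (Hbegf and Prg4, lining markers, 502) and 10 (Hbb-bs, Pcsk5 and Fbln7, 272). Lining-like sub-clusters held 284 control and 502 MMS cells and sublining-like ones 2297 and 614, and 632 and 346 cells fell under neither name. Fibroblast-like cells also differed in depth, with medians of 13742 and 26763 UMIs. Of 17 genes known to respond to tissue dissociation, 12 were at least 2-fold lower in MMS fibroblast-like cells, with a median log2 ratio of -1.27. Summed markers of other cell types in these cells included neutrophil markers at 69.6 CPM in MMS, far above their control level, and erythroid markers at 318 and 888 CPM. The parts that makeup, depth, dissociation and foreign transcripts had in the class totals were not tested beyond the weighted values given here.

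In fibroblast-like cells 47 of the 49 genes had the 30 UMIs over both libraries that a ratio was computed from. Of these, 6 were at least 2-fold higher in MMS (Tgfb1, Inhba, Inhbb, Gdf5, Ltbp3 and Bmpr1b) and 12 at least 2-fold lower (Tgfb2, Bmp2, Bmp4, Bmp5, Bmp7, Gdf10, Gdf15, Ltbp4, Acvrl1, Nog, Fst and Bambi). Over all 14287 genes measured in the class, 8.08% were at least 2-fold higher and 8.18% lower. The median log2 ratio was -0.19 for the members and 0.06 for all genes. Counting intervals of the 2 libraries overlapped for 9 of the 47 measured members and, among the 18 past 2-fold, for Gdf5 alone. The share over all genes is not given, so these counts say nothing particular about the members. Gdf6, a ligand of joint formation, had 17 control UMIs and 1 MMS UMI, and Grem1, a BMP antagonist, had 2 and 24, too few for a ratio. When the 7 clusters with at least 20 cells of each library were weighted equally, 4 members were at least 2-fold lower in place of 12. The share of all genes under that weighting is not given.

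**Figure D1:**
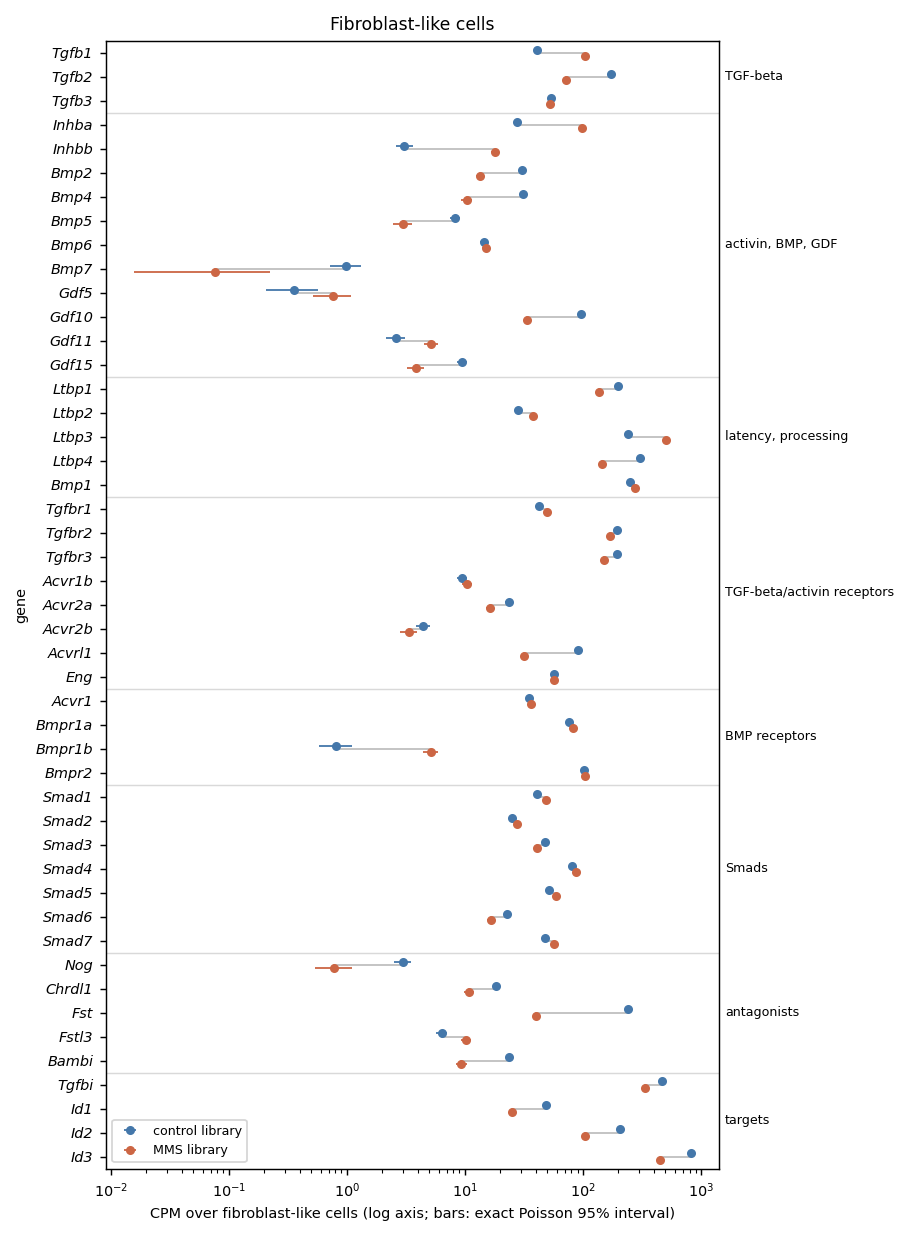
Level of each member with at least 30 UMIs in fibroblast-like cells, as CPM on a log axis, for the control library (blue) and the MMS library (orange), with exact Poisson 95% intervals that cover counting error only. The genes are ordered by role, and the grey line joins the 2 libraries; the widest gaps are those of Bmp7, Bmpr1b, Fst and Inhbb.

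Among the 3 TGF-beta ligands, Tgfb1 and Tgfb2 went in opposite directions. Tgfb1, the isoform made by many cell types, stood at 41.2 CPM in control and 103 CPM in MMS fibroblast-like cells, a log2 ratio of 1.33 (1.25 to 1.40). It was higher in MMS in 6 of the 7 clusters, and cells of the same depth gave 0.95 and equal weights for clusters 0.65. Tgfb2, the isoform best known from mesenchymal and developing tissue, stood at 174 CPM in control and 71.3 CPM in MMS, a log2 ratio of -1.28 (-1.34 to -1.22). Cells of the same depth gave -0.60 and equal weights for clusters -0.65. Tgfb2 was lower in 6 of 7 clusters, and the exception was cluster 10 with 47.5 CPM in control and 72.5 CPM in MMS. Lining-like cells held little Tgfb2 in either library, 28.4 and 11.1 CPM, against 205 and 99.5 CPM in sublining-like cells. Tgfb3 stood at 54.0 and 52.6 CPM in the class as a whole. Within clusters Tgfb3 was not level: cluster 1, led by Gdf10, held 52.3 CPM in control and 247 CPM in MMS, and the log2 ratios of the 7 clusters ran from -0.78 to 2.24.

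The activin subunit genes were both higher in MMS fibroblast-like cells. Inhba, whose product forms activin A, stood at 27.5 CPM in control and 97.3 CPM in MMS, a log2 ratio of 1.82 (1.73 to 1.92). Its level varied widely between clusters. The highest MMS level was in cluster 11 (led by Slurp1 and Sema3e, 32 MMS cells) at 525 CPM, where the 254 control cells stood at 87.6 CPM. Single cells weighed heavily there, since 1 cell held 141 of the 400 control UMIs and 1 cell 123 of the 551 MMS UMIs. Lining cluster 18 held 108 CPM in control and 149 CPM in MMS, and Mmp13 cluster 12 only 31.8 and 22.4 CPM. Among cells of the same depth the log2 ratio was 0.36. Inhbb, whose product forms activin B, rested on fewer UMIs, 147 in control and 707 in MMS, which gave 3.07 and 17.9 CPM and a log2 ratio of 2.54 (2.28 to 2.81). It was highest in cluster 10 in both libraries, at 10.7 and 45.6 CPM, and cells of the same depth gave 2.60.

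The BMP and GDF ligand genes were mostly lower. Bmp2, a classical inducer of bone and cartilage, stood at 30.4 CPM in control and 13.4 CPM in MMS fibroblast-like cells, a log2 ratio of -1.18 (-1.32 to -1.03). It stood at 35.0 and 7.67 CPM in sublining-like cells and at 19.6 and 8.39 CPM in the fibroblast-like cells of neither name, while lining-like cells had a log2 ratio of -0.18. Bmp4, a close relative, stood at 30.9 and 10.3 CPM, a log2 ratio of -1.58 (-1.74 to -1.42). Bmp4 was lower in MMS in lining-like cells too, with 21.9 CPM in control and 3.05 CPM in MMS, a log2 ratio of -2.84. The log2 ratio of Bmp4 in sublining-like cells was -0.58, while 4 of 6 measured clusters were higher in MMS. Equal weights for the clusters brought the log2 ratio of Bmp4 to 0.03.

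Gdf10, also called BMP3b, stood at 96.5 CPM in control and 33.6 CPM in MMS, a log2 ratio of -1.52 (-1.61 to -1.43). Gdf10 helped to define cluster 1, which held 1176 CPM in its 117 control cells and 1302 CPM in its 52 MMS cells. With clusters weighted equally the log2 ratio of Gdf10 was 0.00. Bmp5, a ligand of skeletal development, stood at 8.28 and 2.96 CPM, and Gdf15, a stress-induced ligand, had 454 control and 151 MMS UMIs. With clusters weighted equally the log2 ratios were -0.09 for Bmp5 and -0.06 for Gdf15. Bmp7 rested on 47 control UMIs and 3 MMS UMIs, and 91.5% of the control UMIs lay in cluster 14, which held 551 control and 8 MMS cells. Bmp6, which takes part in iron regulation, stood at 14.5 and 15.2 CPM in the class. Within it, Bmp6 was lower in MMS in lining-like (46.1 and 23.4 CPM) and sublining-like cells (11.5 and 7.84 CPM). The cells of neither name were higher, at 2.31 and 8.94 CPM. Gdf11 stood at 2.59 and 5.17 CPM in the class, just short of 2-fold. Gdf5, the joint interzone ligand, had 17 control and 30 MMS UMIs, and its log2 ratio of 1.10 turned to -0.30 among cells of the same depth.

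The latency proteins were abundant and also split. Ltbp3, which tethers latent TGF-beta, stood at 242 CPM in control and 502 CPM in MMS fibroblast-like cells, a log2 ratio of 1.05 (1.02 to 1.09). Lining-like cells were high in both libraries, at a log2 ratio of 0.04, while sublining-like cells stood at 162 and 356 CPM and the fibroblast-like cells of neither name at 274 and 495 CPM. Equal weights for clusters gave Ltbp3 a log2 ratio of 0.41. Ltbp4, the form that also assembles elastic fibres, stood at 302 and 145 CPM, a log2 ratio of -1.06 (-1.10 to -1.01). It was lower in 6 of 7 clusters, the exception being cluster 1 with 1001 and 1506 CPM, and equal weights for clusters brought the log2 ratio to -0.19. Ltbp1, the first latency protein described, stood at 196 and 136 CPM, and Ltbp2, which does not bind latent TGF-beta, at 28.4 and 37.5 CPM. Within the class Ltbp2 was not level. Lining-like cells were lower in MMS, with a log2 ratio of -1.23 (-1.53 to -0.92). Sublining-like cells were higher, at 33.9 and 69.5 CPM, a log2 ratio of 1.04 (0.91 to 1.17). Of the 5 clusters measured for Ltbp2, 4 were higher and 1 lower in MMS. Bmp1, a metalloproteinase that cuts procollagen and chordin and is no BMP despite its name, stood at 248 and 276 CPM. Of 27 members measured in all 7 clusters, Bmp1 was the 1 that was higher in MMS in each, with log2 ratios from 0.12 to 1.28. Over the 5566 genes measured in every one of the 7 clusters, 7.29% were higher in all of them.

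Receptor and Smad genes differed less, apart from the receptors Acvrl1 and Bmpr1b. Of the 12 receptor genes, 10 had log2 ratios between -0.52 and 0.23. These include Tgfbr1 (42.3 and 49.5 CPM) and Tgfbr2 (193.5 and 169.6 CPM), the signalling pair for TGF-beta, Tgfbr3, a co-receptor (196 and 151 CPM), Bmpr2 (103 and 103 CPM) and Bmpr1a (76.4 and 81.9 CPM). Acvr1, Acvr1b, Acvr2a and Acvr2b, which bind activins and BMPs, and the co-receptor Eng made up the rest, with Acvr2a the lowest at -0.52. The 7 Smad genes lay between -0.47 for the inhibitory Smad6 and 0.25 for the inhibitory Smad7. Acvrl1, which encodes the type I receptor ALK1 and is best known from endothelium, stood at 90.4 CPM in control and 31.6 CPM in MMS fibroblast-like cells, a log2 ratio of -1.52 (-1.61 to -1.43). It was lower in MMS in all 7 clusters, by log2 ratios from -1.14 to -0.53. Bmpr1b, a BMP and GDF5 receptor, rested on 39 control and 202 MMS UMIs, 0.816 and 5.12 CPM, and among fibroblast-like clusters was highest in MMS in lining cluster 18 at 9.31 CPM.

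Antagonist genes were mostly lower. Fst, which encodes the activin-binding protein follistatin, stood at 242 CPM in control and 39.8 CPM in MMS fibroblast-like cells, a log2 ratio of -2.60 (-2.68 to -2.53). Cluster 2, led by Ccl11 and Sult1e1, held 50.4% of the control Fst UMIs at 1153 CPM and had 400 control cells against 2 MMS cells. Equal weights for the clusters with at least 20 cells of each library, which leave out cluster 2, left a log2 ratio of -0.14. Cells of the same depth gave -0.61. Of the 6 clusters measured for Fst among those 7, 4 were lower and 2 higher in MMS. In lining-like cells Fst stood at 26.9 and 0.665 CPM and in sublining-like cells at 298 and 123 CPM. The fibroblast-like cells of neither name held 200 and 6.21 CPM of Fst, from 1818 and 57 UMIs. Bambi, a decoy receptor that blocks type I receptors, stood at 23.8 and 9.32 CPM, a log2 ratio of -1.35 (-1.53 to -1.18), and was lower in all 7 clusters. Nog, which encodes the BMP antagonist noggin, had 143 control and 31 MMS UMIs, 2.99 and 0.785 CPM, and 77.6% of its control UMIs lay in cluster 11. With each cell given the same weight the log2 ratio of Nog was -0.45. Chrdl1, a chordin-like BMP antagonist, stood at 18.5 and 10.9 CPM in the class. It was higher in MMS in all 5 clusters where it was measured, by log2 ratios of at least 0.17. By sub-class, Chrdl1 stood at 17.5 and 32.3 CPM in sublining-like cells but at 33.7 and 3.38 CPM in those of neither name. Lining-like cells had 14 and 2 UMIs. Fstl3, a follistatin relative, stood at 6.34 and 10.3 CPM.

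The 4 target genes were all lower in MMS fibroblast-like cells, each by less than 2-fold. The Id genes encode inhibitors of basic helix-loop-helix factors. Id1 stood at 48.6 CPM in control and 25.3 CPM in MMS, a log2 ratio of -0.94 (-1.05 to -0.84). Id2 stood at 205 and 105 CPM, a log2 ratio of -0.97 (-1.02 to -0.91), and Id3 at 818 and 450 CPM, a log2 ratio of -0.86 (-0.89 to -0.84). Id2 and Id3 were lower in all 7 clusters and Id1 in 6, the exception being cluster 11 at 23.7 and 25.7 CPM. The smallest cluster differences were those of Id2 in cluster 1 (302 and 291 CPM) and Id3 in cluster 1 (1363 and 1245 CPM). The widest was that of Id1 in cluster 8, at 53.1 and 5.87 CPM. Cluster 8 held 741 control and 41 MMS cells, so that MMS value rested on few UMIs. Cells of the same depth gave -0.75 for Id1, -0.46 for Id2 and -0.31 for Id3. Tgfbi, a matrix protein named for its induction by TGF-beta, stood at 466 and 334 CPM and split over clusters, 3 higher and 4 lower.

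Acvrl1, Bambi, Id2 and Id3 were thus the 4 members, of 27 measured in every one of the 7 fibroblast-like clusters, that were lower in MMS in all of them. Over all 5566 genes so measured, 5.98% were lower in all 7. The clusters come from the same 2 libraries and are not replicates of each other.

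**Figure D2:**
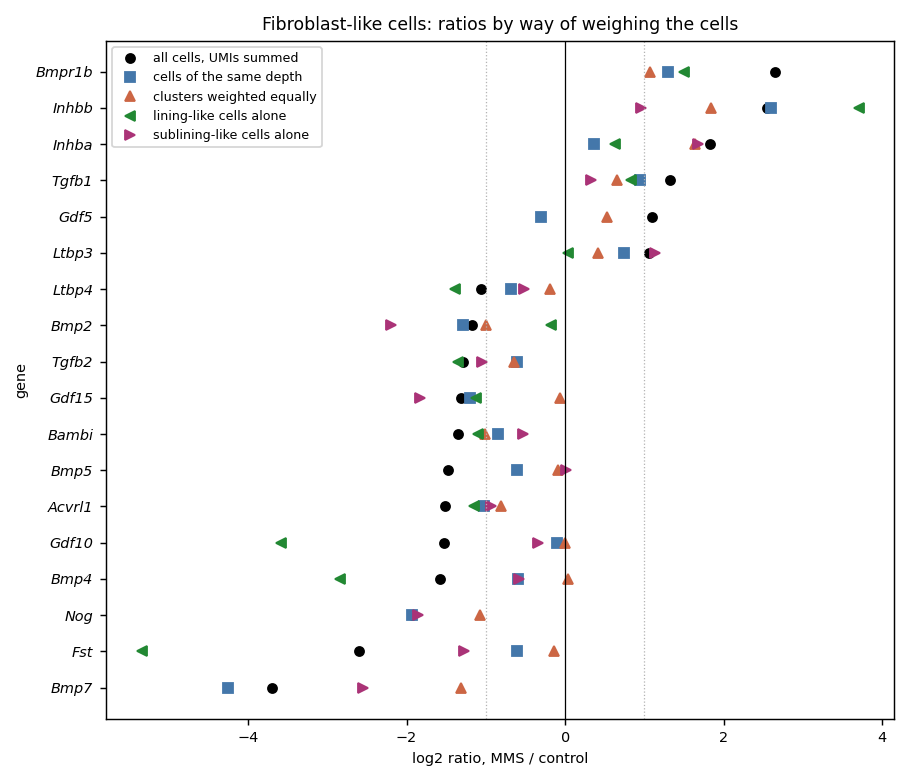
Log2 ratio of MMS over control for the 18 members at least 2-fold different in fibroblast-like cells, with all UMIs summed (black), among cells of the same depth (blue), with clusters weighted equally (orange), and in lining-like (green) or sublining-like cells (purple) alone. Dotted lines mark 2-fold. Gdf5, Bmp5, Bmp4 and Gdf10 change sign in a setting shown, and the others keep to one side. With clusters weighted equally Gdf10, Bmp4 and Fst move to near 0, while Fst is at -5.34 in lining-like and -1.28 in sublining-like cells.

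Lining-like and sublining-like cells were also read apart. In lining-like cells 42 members were measured, 2 at least 2-fold higher and 10 lower, against 3.26% and 6.45% of all genes in that sub-class. In sublining-like cells 45 were measured, 5 higher and 6 lower, against 7.72% and 5.39%. Inhbb stood at 1.37 and 17.8 CPM in lining-like cells, from 9 and 321 UMIs, and at 2.77 and 5.39 CPM in sublining-like cells. Inhba showed the opposite arrangement, with log2 ratios of 0.62 in lining-like and 1.68 in sublining-like cells, where it stood at 17.4 and 55.7 CPM. Tgfb1 stood at 75.7 and 134 CPM in lining-like cells, with a log2 ratio of 0.82, and its log2 ratio was 0.33 in sublining-like cells. In the fibroblast-like cells of neither name Tgfb1 stood at 22.0 and 115 CPM, a log2 ratio of 2.38. Whether any of these sub-class differences differ from each other was not tested.

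**Figure D3:**
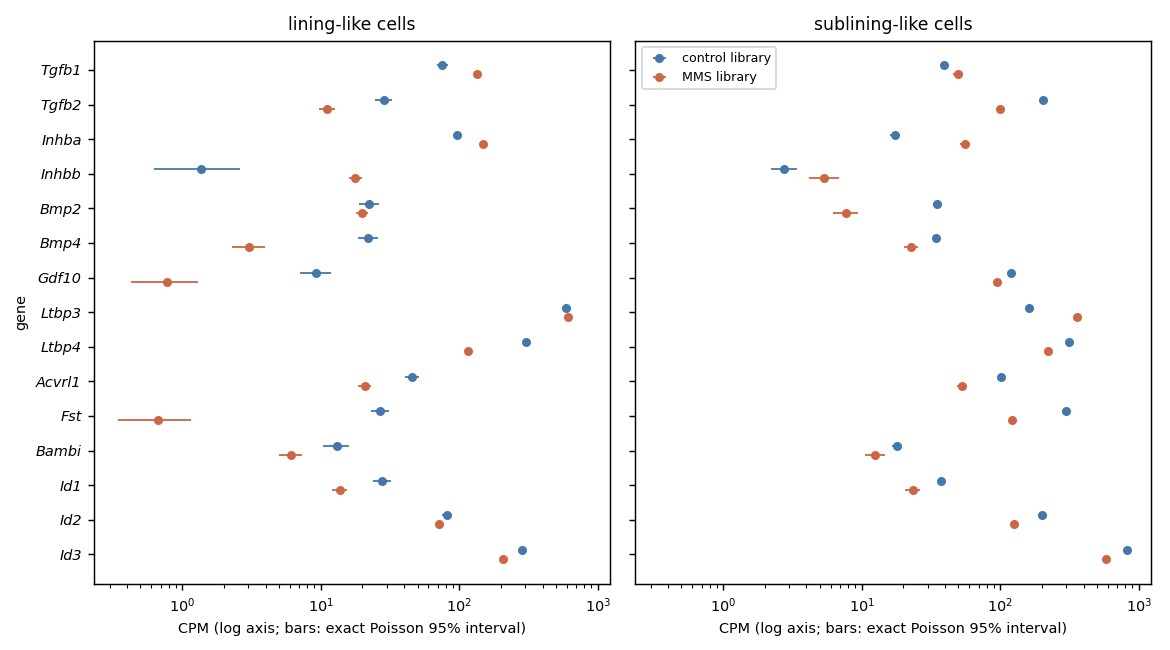
Levels of 15 members in lining-like cells (left) and sublining-like cells (right), as CPM on a log axis with exact Poisson 95% intervals, control in blue and MMS in orange. Tgfb2 and Fst are lower in lining-like than in sublining-like cells of the same library. Fst also differs between the libraries in lining-like cells, at 26.9 CPM in control and 0.665 CPM in MMS. Ltbp3 differs only on the right.

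The other cell classes divided the ligands, receptors and targets between them. In control, 13 of the 49 genes had their highest level in fibroblast-like cells, 10 in mural-like and 8 in endothelial-like cells, among 9 classes or clusters of at least 20 cells. In 23 of the 49 cases the interval of the highest class lay apart from that of the next. Shares over all genes are not given for these counts or for the MMS count that follows. The counts therefore say nothing particular about the members. In MMS, 9 members were highest in the tendon and cartilage marker cluster, among them Inhba at 204 CPM, Tgfb2 at 189 CPM, Tgfb3 at 134 CPM and Gdf5 at 9.12 CPM. Tgfbi was highest in macrophage or monocyte-like cells, at 1428 CPM in control and 1449 CPM in MMS. Eng, the TGF-beta co-receptor endoglin, was highest in endothelial-like cells at 706 and 935 CPM. Id2, which lymphocytes need to develop as natural killer and innate lymphoid cells, was highest in T or NK-like cells at 740 and 596 CPM. Bmp7 had only 75 UMIs in all barcodes, and its highest level was that of T or NK-like cells, 15 UMIs in control and 6 in MMS. Endothelial-like cells were also highest in Id1, at 931 and 639 CPM, in Bmpr2 at 197 and 281 CPM, in Smad1 at 150.1 and 233 CPM, in Bambi at 61.3 and 75.7 CPM and in Acvr2a at 43.9 and 31.7 CPM. The highest class of Ltbp4 in MMS was also the endothelial-like one, with 866 CPM. Mural-like cells were highest in Bmp5, at 33.3 and 29.2 CPM, and in Gdf11, at 18.3 and 27.8 CPM, and Id3 reached 1263 CPM in control mural-like and 1113 CPM in MMS endothelial-like cells. Tgfbr1 was highest in macrophage or monocyte-like cells, at 92.2 and 101 CPM. Tgfb1 stood at 293 CPM in neutrophil-like and 290 CPM in macrophage or monocyte-like cells in control, with overlapping intervals. In MMS it was highest in the 20 B or plasma-like cells, at 543 CPM. Adipocyte-like cells were highest in Ltbp2, at 72.7 and 239 CPM, and in Chrdl1, at 46.1 and 55.4 CPM. In adipocyte-like cells (33 and 63 cells) Inhbb stood at 72.7 and 69.6 CPM, the highest of any class in both libraries. How much of a low level is free RNA was not tested.

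**Figure D4:**
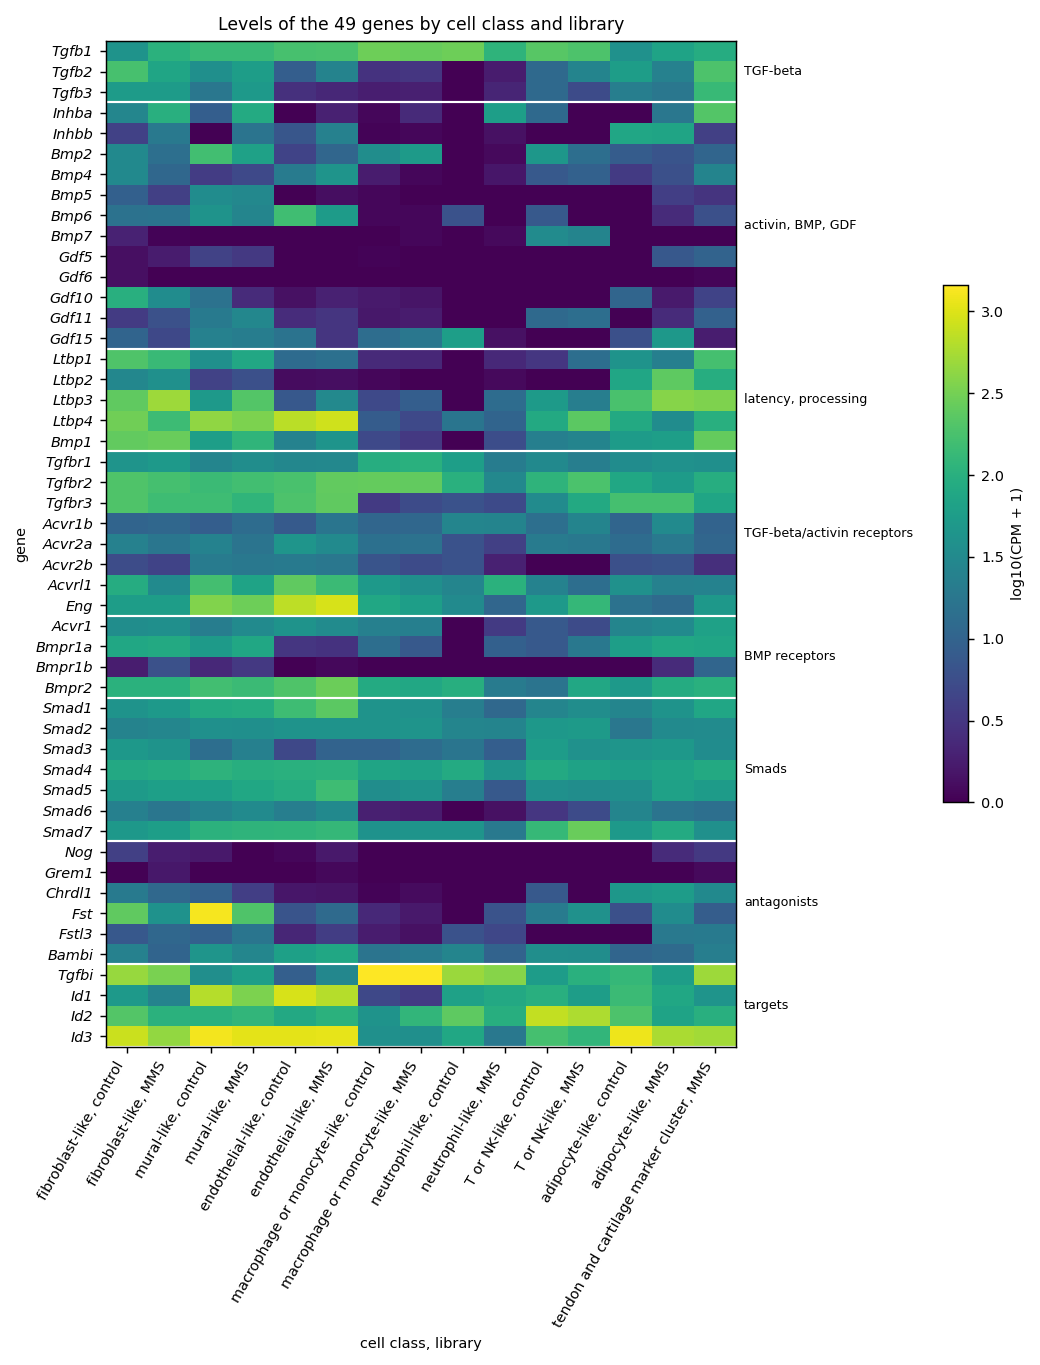
Colour shows log10 of (CPM + 1) for the 49 genes (vertical axis, grouped by role) in 7 cell classes of both libraries and in the tendon and cartilage marker cluster, which has MMS cells only (horizontal axis). Eng, Id1 and Id3 are bright in mural-like and endothelial-like columns, Tgfbi in macrophage or monocyte-like columns, and Fst is brightest in control mural-like cells.

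In endothelial-like cells 34 members were measured, 9 at least 2-fold higher and 2 lower in MMS, against 6.74% and 2.95% of 11275 genes. The median log2 ratio was 0.38 for the members and 0.04 for all genes. Most control cells were in clusters 5 and 3 (Gpihbp1 and Car4), most MMS cells in clusters 9 (Plvap and Aplnr), 3 and 6 (Selp and Vwf). Tgfb2 stood at 7.70 CPM in control and 24.9 CPM in MMS, a log2 ratio of 1.69 (1.24 to 2.16), and was highest in the Sema3g and Gja4 cluster 22 at 78.4 and 173 CPM. Ltbp3 stood at 6.35 and 30.1 CPM, a log2 ratio of 2.25 (1.78 to 2.74), and Inhbb at 5.94 and 23.7 CPM. Bmp4 stood at 19.8 and 42.5 CPM in the class, but in each of the 3 clusters where it was measured it was lower in MMS. Its highest cluster was cluster 6, at 179 and 106 CPM, which held 29 control and 130 MMS cells. Bmp2, from 25 and 63 UMIs, stood at 3.38 and 10.0 CPM, with 61 of the MMS UMIs in cluster 9, and equal weights for clusters gave a log2 ratio of 0.08.

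Bmp6 was the reverse, at 156 CPM in control and 53.8 CPM in MMS endothelial-like cells, a log2 ratio of -1.54 (-1.72 to -1.36). Within cluster 3 it stood at 150 and 159 CPM, and within cluster 5 at 215 and 162 CPM, and equal weights for clusters gave a log2 ratio of -0.31. Gdf15 stood at 14.9 and 2.07 CPM, with 38 of the 110 control UMIs from 1 cell. Acvr1b, the activin type I receptor ALK4, stood at 6.75 and 15.9 CPM, and Smad3 at 3.78 and 9.24 CPM, the latter with a log2 ratio of 0.33 when clusters were weighted equally. Smad1, Smad5 and Smad6 were higher in MMS in all 5 clusters, as were Tgfbr2, Tgfbr3 and Id2. Acvrl1 was the 1 member, of 16 measured in all 5 clusters, that was lower in each, by log2 ratios from -0.73 to -0.30. Over the 4590 genes so measured, 15.6% were higher in all 5 clusters and 9.85% were lower. Erythroid markers summed to 161 and 832 CPM in these cells and mural markers to 396 and 848 CPM, and their part was not tested. Summed fibroblast markers stood at 285 and 297 CPM and lining markers at 735 and 612 CPM in these cells. All 11 differences of at least 2-fold were kept among cells low in both. That limit left 1601 of 1604 control and 645 of 652 MMS cells, so it could hardly change the ratios. The part of fibroblast transcripts was thus not tested. Fst, 5.67 and 11.5 CPM from 42 and 72 UMIs, had 33 of its MMS UMIs in 1 cell, and giving each cell the same weight turned its log2 ratio from 1.02 to -0.51. Tgfbi stood at 7.97 and 28.2 CPM, and equal weights for clusters gave a log2 ratio of 0.72.

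In mural-like cells 39 members were measured, 6 at least 2-fold higher and 3 lower, against 6.39% and 4.33% of 10368 genes. Fst stood at 1318 CPM in control, the highest of all classes, and 195 CPM in MMS, where the interval of the 31 Schwann or glial-like cells overlapped it, a log2 ratio of -2.75 (-2.88 to -2.63) from 2019 and 676 UMIs. Bmp2 stood at 159 and 63.3 CPM, a log2 ratio of -1.32 (-1.59 to -1.05), and Acvrl1 at 165 and 66.5 CPM, a log2 ratio of -1.31 (-1.58 to -1.05). Inhba stood at 7.83 and 85.3 CPM, from 12 and 295 UMIs. Inhbb had 0 UMIs in control and 53 in MMS, at least 7.83-fold higher when the 0 is read as up to 3 counts. Ltbp3 stood at 48.9 and 208 CPM, Ltbp1 at 37.2 and 77.2 CPM, Tgfb3 at 17.0 and 50.9 CPM and Bmp1 at 57.4 and 116 CPM. These mural-like cells carried all 10 fibroblast and all 9 lining markers, at summed levels of 4629 and 1623 CPM in control and 9533 and 24756 CPM in MMS. Among the 95 control and 82 MMS cells low in those markers the log2 ratio of Bmp1 was 0.15, that of Ltbp3 0.71, that of Acvrl1 -0.89 and that of Bmp2 -0.83. Fst kept -3.53 there, Inhba 2.73, Ltbp1 1.59 and Tgfb3 1.30. With a mitochondrial limit of 5% the log2 ratio of Ltbp1 was 0.42, and among cells of the same depth that of Inhbb was 0.43. Of the 17 dissociation-response genes 10 were at least 2-fold lower in MMS mural-like cells, and their part in these differences was not tested.

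**Figure D5:**
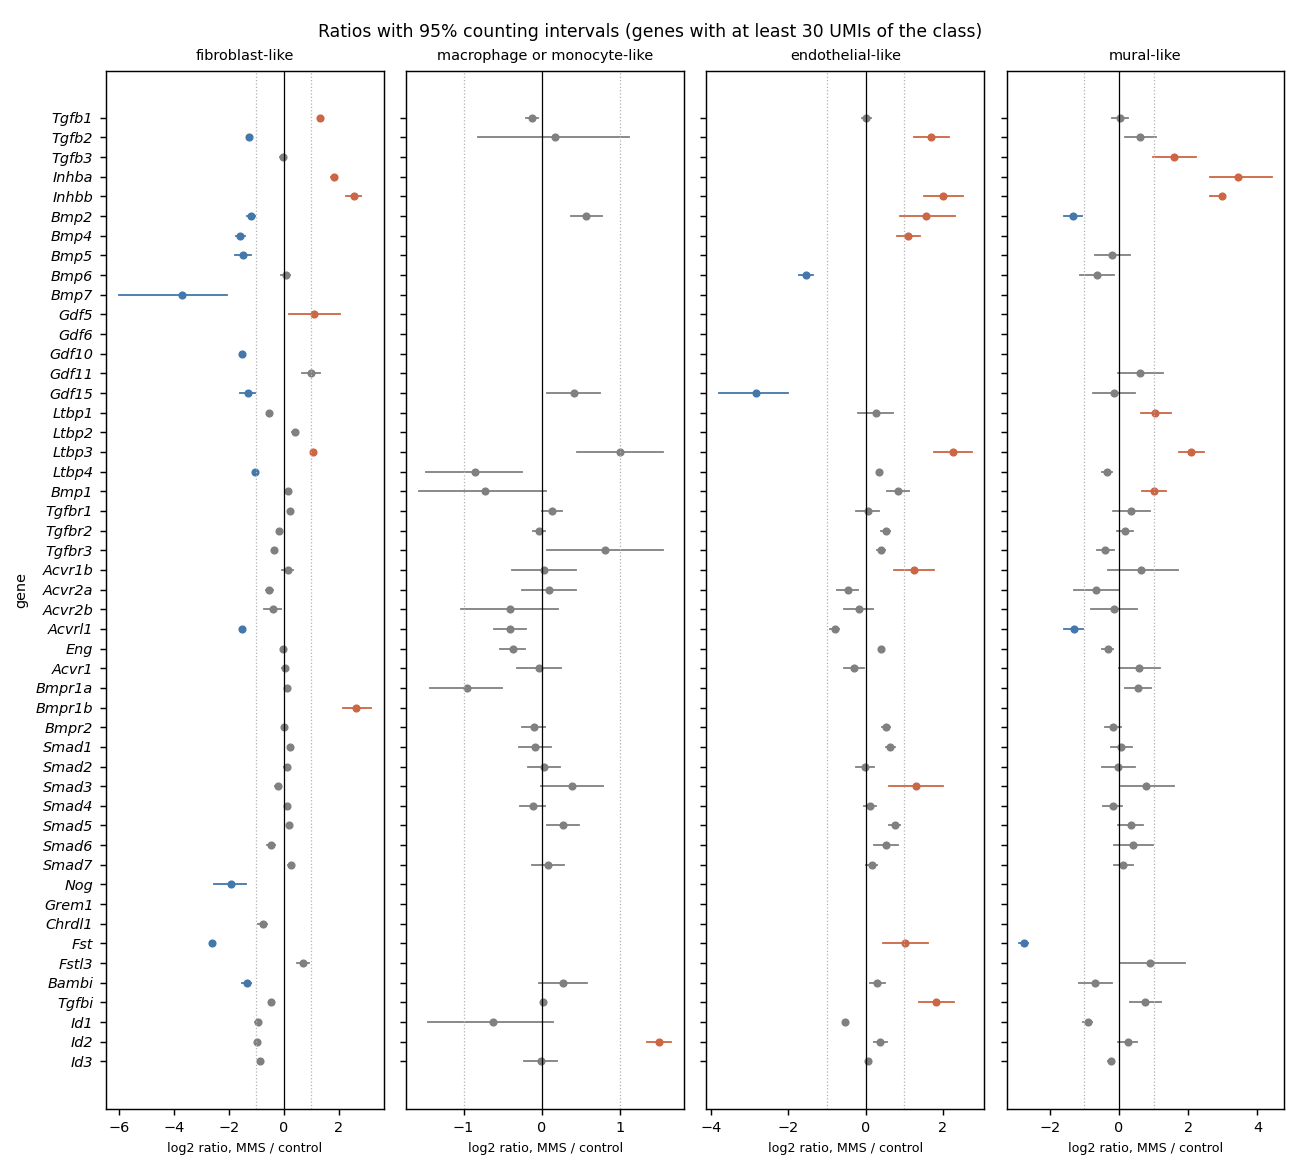
Log2 ratio of MMS over control (horizontal axis, a separate range in each panel) with 95% counting intervals for the members with at least 30 UMIs in the 4 main classes. Red points are at least 2-fold higher and blue at least 2-fold lower in MMS, dotted lines mark 2-fold, and mural-like Inhbb is a lower bound; Tgfb2, Bmp2, Bmp4 and Fst lie on opposite sides of 0 in fibroblast-like and endothelial-like cells.

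In macrophage or monocyte-like cells 29 members were measured, 1 at least 2-fold higher and 0 lower, against 3.38% and 2.39% of 11241 genes, and the median log2 ratio was 0.02. Most control cells were in clusters 17 (Cd209f and Pf4) and 15 (Vsig4 and Lyve1), most MMS cells in cluster 25 (Cxcl2 and Ccl3). The 1 was Id2, at 41.6 CPM in control and 118 CPM in MMS, 2.83-fold higher (log2 interval 1.35 to 1.66). It was higher in all 3 clusters, from 22.1 and 83.5 CPM in cluster 17 to 116 and 135 CPM in cluster 25, but it was below 2-fold in 6 of 14 other settings. Those were both other UMI minimums, both other mitochondrial limits, finer clustering and equal weights for clusters, with log2 ratios from 0.70 to 0.92. Tgfb1 stood at 290 and 266 CPM, Tgfbr2 at 257 and 251 CPM and Tgfbi at 1428 and 1449 CPM. Acvrl1, at 48.7 and 36.7 CPM, was lower in all 3 clusters, as were Bmpr1a, Eng, Smad4 and Id3, while Bmp2, Tgfbr2, Smad1, Smad5 and Id2 were higher in all 3. Over 8994 genes, 23.9% were higher and 20.2% lower in all 3 clusters, so agreement over 3 clusters was common.

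Neutrophil-like cells were few in control, 31 against 312, and differed in depth, with medians of 4171 and 13682 UMIs. They joined cluster 24 (Camp and Ltf, 12 and 152 cells) and cluster 26 (Retnlg and Mmp8, 19 and 160 cells). The parts of depth and makeup in the values below were not tested. Inhba had 0 UMIs in the control cells and 310 in the MMS cells, 58.3 CPM, at least 3.65-fold higher when the 0 is read as up to 3 counts. The MMS level stood above the 1.37 CPM of macrophage or monocyte-like and the 0.956 CPM of endothelial-like MMS cells. Unlike in the 4 main classes, Acvrl1 was higher in MMS neutrophil-like cells, with a log2 ratio of 1.98 (0.75 to 3.61). It had 5 UMIs and 26.6 CPM in control and 558 UMIs and 105 CPM in MMS. Tgfb1 stood at 293 and 114 CPM there.

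Other genes of the system, from lists without the 49 members, were read in fibroblast-like cells. Of 13 genes that activate or anchor latent TGF-beta, 12 were measured, 6 at least 2-fold higher and 0 lower, with a median log2 ratio of 1.08, against the 8.08% and 8.18% of all genes in the class. In lining-like cells 2 of 12 were at least 2-fold higher, with a median of 0.34. Fbn2, a fibrillin that anchors latent complexes, stood at 2.15 and 36.1 CPM, Thbs1, an activator of latent TGF-beta, at 6.34 and 36.8 CPM and the membrane protease Mmp14 at 122 and 412 CPM. Fbn1 went the other way, at 658 and 358 CPM. Of 13 intracellular regulators all were measured and 1 was at least 2-fold higher, the repressor Tgif2, from 11 and 37 UMIs, named after its values were seen. Among 18 further target genes 7 were at least 2-fold higher and 4 lower: the contractile genes Tagln (5.73 and 23.6 CPM) and Acta2 (5.27 and 16.0 CPM) and the matrix gene Fn1 (7534 and 21473 CPM) were high in MMS, and the cell-cycle inhibitor Cdkn1a (563 and 174 CPM), the BMP-induced Msx1 (84.8 and 31.2 CPM) and the Notch and BMP target Hey1 (1.63 and 0.684 CPM) were low. In lining-like cells 0 of 17 measured targets were at least 2-fold higher and 4 lower, with a median log2 ratio of -0.30. Tagln and Acta2 are also among 9 mural markers, all 9 detected in fibroblast-like cells at summed levels of 84.6 and 155 CPM, and the part of mural transcripts was not tested. Of 12 other ligands only 4 had 30 UMIs, with Bmp8a (1.19 and 2.86 CPM) and Inha (1.05 and 2.36 CPM) at least 2-fold higher and Bmp3 (77 and 16 UMIs) lower. Of 14 housekeeping genes none reached 2-fold either way, with a median log2 ratio of 0.19.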

How the data were processed

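Each library's matrix holds raw UMI counts per gene and barcode as the authors deposited them, not normalized. The file headers name Cell Ranger 5.0.0, whereas version 2.0.0 and build mm10 stand in the submitters' processing notes; further options are not given in the sources. A cell was kept if it had 1000 UMIs or more, 500 genes or more and no more than 10% mitochondrial UMIs, and doublets called by scrublet (in scanpy 1.11.5, expected rate 0.06) were removed, 184 in control and 106 in MMS. Both libraries were clustered together (Leiden, resolution 1.0, 29 clusters) without batch correction. Clusters were named by marker scores set against the 25th percentile over clusters; that baseline, the leaving out of erythroid genes from naming and the setting apart of clusters that carried another class's markers or cell-cycle genes were chosen after the clusters were seen. Low-depth clusters with endothelial markers (355 control and 55 MMS cells) and a cluster led by MHC class II genes (354 and 55) were not assigned to a class. Class names may therefore differ from the study's own.

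UMIs were summed per class and library. Ratios used the exact conditional binomial interval and levels the exact Poisson interval (scipy 1.17.1), with 0 counts read as 3, and the interval script was tested on simulated data. The intervals cover counting error only. Ratios needed 30 UMIs over both libraries. Every member was accounted for; UMIs or CPM of both libraries were given for members at least 2-fold different with at least 100 UMIs in a main class and, for most members, in the class where they were highest, and up to 3 genes at each end of a list of other pathway genes with at least 100 UMIs were named. The list of other antagonists is not reported here. Further values within clusters were chosen after they were seen. Cells of the same depth means bins of 0.5 log2 UMIs, weighted by the smaller library. Cells low in fibroblast markers had at most 0.5% of UMIs from those and the lining markers. The members and lists were chosen with earlier results of these data known. Alternatives chosen after seeing the data were equal cluster weights, values within clusters, adding the tendon and cartilage marker cluster, leaving out the Sult1e1 cluster, and cells low in fibroblast markers. Gene positions are from GENCODE M21 (GRCm38).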

Additional observations from a re-analysis of the deposited data

Results flagged for a closer look

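Tgfb2, Bmp2, Bmp4 and Fst were at least 2-fold different in opposite directions in different cell classes of the same 2 libraries; with 1 library per group none of these differences between classes was tested. Tgfb2 had a log2 ratio of MMS over control of 1.69 in endothelial-like and -1.28 in fibroblast-like cells. Bmp2 had 1.57 in endothelial-like, -1.18 in fibroblast-like and -1.32 in mural-like cells. Bmp4 had 1.10 in endothelial-like and -1.58 in fibroblast-like cells. Fst had 1.02 in endothelial-like, -2.60 in fibroblast-like and -2.75 in mural-like cells. The endothelial-like values of Bmp2, Bmp4 and Fst did not hold in every setting. Fst had 33 of its 72 MMS UMIs in 1 cell, and its log2 ratio was -0.51 with each cell the same weight and -1.64 among cells of the same depth. Bmp4 was lower in MMS in each of the 3 clusters where it was measured, and equal weights for clusters gave -0.54. Bmp2 had 0.08 with equal weights for clusters. In fibroblast-like cells equal weights for clusters gave 0.03 for Bmp4 and -0.14 for Fst. Lining-like and sublining-like cells alone gave -2.84 and -0.58 for Bmp4 and -5.34 and -1.28 for Fst.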

How the results depend on the processing

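No paired analysis was possible because each group is 1 library and the groups share fewer than 2 replicate numbers, and no library could be left out. Of 39 differences of at least 2-fold over the 4 main classes, 33 kept their sign and 9 kept 2-fold in every setting that gave a value. The log2 ratio reversed for Gdf5 in fibroblast-like cells of the same depth (-0.30), for Bmp5 in sublining-like cells alone (0.012), with clusters weighted equally for Bmp4 (0.033) and Gdf10 (0.0033) in fibroblast-like and Bmp4 (-0.54) in endothelial-like cells, and for endothelial-like Fst with each cell the same weight (-0.51) and at the same depth (-1.64). Cells of the same depth gave 3 higher and 6 lower members in fibroblast-like cells (median -0.0023), 2 and 2 in macrophage or monocyte-like cells and 5 higher in endothelial-like cells. With each cell the same weight 7 members were lower in fibroblast-like and 2 in macrophage or monocyte-like cells. Among fibroblast-like cells, lining-like cells alone gave 2 higher, and sublining-like cells alone 6 lower (median -0.027). Equal weights for clusters gave 4 lower (median 0.068) in fibroblast-like, 2 higher and 1 lower in macrophage or monocyte-like, and 4 higher and 1 lower in endothelial-like cells. The macrophage or monocyte-like count of 1 higher and 0 lower became 0 higher with a minimum of 500 UMIs and of 2000 UMIs per cell, 10 higher (median 0.33, Id2 not among them at 0.70) with a 5% mitochondrial limit, 0 and 3 with a 20% limit, 4 and 4 with doublets kept, 0 and 2 at resolution 2.0, 2 higher when centred on the median gene, 2 and 3 with a minimum of 10 UMIs per gene, and 1 lower among cells low in fibroblast markers. In mural-like cells 5 were lower with a minimum of 10 UMIs per gene and 1 among cells low in fibroblast markers. Clusters and their names were rebuilt in the settings on cells, doublets and resolution, and the cause of these changes was not tested. Apart from lining-like and sublining-like cells alone, the share of all genes past 2-fold is not given for these settings. A changed count may therefore not be particular to the members. Depth limits members with few UMIs, such as Gdf5, Gdf6, Grem1, Bmp7 and Nog.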
